A study of Mus musculus with 43 samples.

Results

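The genes described here are 10 mouse genes of meiotic prophase: Syce1 and Sycp1 of the synaptonemal complex, Sycp2, Sycp3 and Hormad1 of the chromosome axis, Majin of the telomere attachment, Ccnb1ip1 and Tex15 of recombination, and Meioc and Rbm46 of meiotic RNA control. They were taken by symbol, as 10 of the 35815 symbols present in all 3 deposited expression tables. They were chosen by their oocyte values, namely the differences of PRC1-CD, DKO and TKO oocytes from controls and of TKO from DKO oocytes (groups defined below), to set higher RNA without Polycomb repressive complex 1 (PRC1) beside dependence on the methyltransferase MLL2. Their oocyte values are therefore given as a description, with no test, whereas their morula values were not used in the choice and were tested.

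The series holds 43 RNA-seq libraries. Full-grown oocytes came in 2 sets, one of PRC1 catalytic-dead (PRC1-CD, 2 libraries) and wild-type oocytes (PRC1-WT, 2 libraries), and one of Pcgf1/6/Mll2 triple knockout (TKO), Pcgf1/6 double knockout (DKO) and wild-type (WT) oocytes, with 3 libraries each. Morulae came from maternal TKO (matTKO), maternal DKO (matDKO) and WT, with 10 libraries each. The sources used here do not name the alleles, the Cre driver, the mouse strain or the age of the females, nor do they say whether the libraries of a group came from separate animals. Spread between libraries may thus be technical in part. Each PRC1-CD and PRC1-WT library pooled 10 oocytes freed of the zona pellucida, and 1 PRC1-CD library carries the tissue label embryo although its title and stage say oocyte. No group lacks MLL2 alone, so the effect of losing MLL2 in oocytes with intact PCGF1 and PCGF6 was not measured.

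PRC1 is the ligase that attaches ubiquitin to histone H2A. Its variant complexes are told apart by their PCGF subunit, here PCGF1 or PCGF6, while MLL2, the product of Kmt2b, methylates lysine 4 of histone H3. In female mice the synaptonemal complex is built in the fetal ovary, where homologous chromosomes pair and recombine. It is taken apart when oocytes arrest at the end of prophase, so it is no longer assembled in the full-grown oocyte. In mouse embryonic stem cells the PCGF6 form of PRC1 contains MGA, MAX and E2F6, which bind E-box and E2F motifs and keep many germline genes silent.

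Oocyte levels are RPKM, a read count divided by transcript length and by library size. Morula levels are taken as TPM, for which each library is scaled to the same total. Between 10902 and 13086 genes per library reached a value of 1, and the sequencing depth is unknown. All 10 full-grown oocyte markers examined had a mean of at least 1 in every oocyte group; none was called in PRC1-CD, 1 was lower in DKO and 3 were lower in TKO. Of 6 markers of oocytes in early follicles, 2 were called higher in PRC1-CD, 2 higher in DKO, and 4 higher and 1 lower in TKO, each against its control. Sohlh1 and Sohlh2, germ cell transcription factors of early oocytes, were called in all 3 comparisons. Sohlh1 averaged 8.88 RPKM in PRC1-CD, against 0.10 in PRC1-WT, and 3.78 in TKO and 3.19 in DKO, against 0.10 in WT. With control means under 1, Sohlh1 entered the tests through the affected oocytes alone, which fixed its direction. Sohlh2 averaged 17.0 RPKM in PRC1-CD, against 1.79 in PRC1-WT, and 8.10 in TKO and 19.7 in DKO, against 1.19 in WT. The 6 together summed to 393.8 and 437.7 RPKM in PRC1-CD, against 396.5 and 420.3 in PRC1-WT, and to 312.6 to 363.9 in TKO and 368.2 to 419.2 in DKO, against 316.8 to 366.2 in WT. Pcgf1 averaged 12.2 ± 1.52 RPKM in TKO and 12.3 ± 1.47 in DKO, against 1108 ± 39.9 in WT oocytes (SD, n = 3 each). Kmt2b averaged 1.14 ± 0.15 RPKM in TKO, against 3.90 ± 0.32 in DKO and 4.85 ± 0.38 in WT oocytes. Pcgf6 kept 72.2 ± 9.86 RPKM in TKO and 57.1 ± 2.77 in DKO, against 153.8 ± 5.65 in WT. Ring1 averaged 3.09 RPKM in PRC1-CD and 3.195 in PRC1-WT, but 0.107 in TKO, 0.13 in DKO and 0.033 in WT. The 2 wild-type groups thus differed in this PRC1 gene, and the reason was not tested. Rnf2 averaged 57.0 RPKM in PRC1-CD and 55.2 in PRC1-WT, and 33.6 in TKO, 38.5 in DKO and 37.95 in WT. Summed over 12 granulosa and cumulus cell markers, the PRC1-CD libraries held 44.8 and 52.2 RPKM, against 20.98 and 21.37 in PRC1-WT, with 4 markers called higher. Of these, Fshr averaged 15.3 RPKM in PRC1-CD, against 0.55 in PRC1-WT. Also called were Ptgs2 (5.21 against 0.12), Cyp11a1 (7.045 against 2.52) and Inha (1.63 against 0.285). Only 5 of the 12 markers could be tested. Fshr, Ptgs2 and Inha entered the test only because their PRC1-CD mean reached 1, which fixed their direction. Cyp19a1 averaged 17.2 RPKM in both groups. Foxl2 and Amh, also on the list, had means under 0.1 RPKM in all oocyte groups of both sets. Has2, Vim and Gja1 had means under 1 and were not tested. They averaged 0.98, 0.51 and 0.34 RPKM in PRC1-CD, against 0.27, 0.055 and 0.055 in PRC1-WT. Of 9 stroma, vessel and blood markers 2 were tested. Dcn was called higher in PRC1-CD (5.415 RPKM, against 1 in PRC1-WT), and Pecam1 was not called (6.765 against 9.17). Against WT, Dcn was called lower in DKO and Pecam1 higher in TKO. The TKO libraries held 24.1 to 29.5 RPKM of the 12 markers, the DKO libraries 19.1 to 21.5 and the WT libraries 24.8 to 28.5. In TKO and in DKO 2 of them were called higher and 1 lower than in WT. Fshr and Ptgs2, the 2 called higher in TKO, reached a mean of 1 in TKO alone, which fixed their direction. The same holds for Inha, called higher in DKO. Most of the sum of the 12 markers is Cyp19a1, at a mean of 16.2 RPKM in TKO, 15.1 in DKO and 23.3 in WT, while Fshr averaged 6.41 in TKO, 0.20 in DKO and 0.48 in WT. The part of the early follicle, granulosa and stroma markers in the results below was not tested. In pooled cells, more cells with a transcript and more transcript per cell cannot be told apart.

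Of the 10 promoters, 8 were found in the RefSeq promoter table of build GRCm38.p6, which holds 250 bases before and 50 after each transcript start. Majin and Tex15 had no window there. The windows were searched for the E-box CACGTG, which reads the same on both strands, and for the E2F motif TCCCGC, on both strands (GCGGGA on the other). The E-box stood in 4 of the 8 windows (50%), against 8.09% of the 27025 genes in the table. The E2F motif stood in 6 of the 8 (75%), against 22% of genes. Both motifs together stood in the same 4 windows, those of Sycp1, Sycp3, Hormad1 and Rbm46, against 2.65% of genes. Among 9575 genes tested in the knockout oocytes, 11.4% held the E-box, 35.8% the E2F motif and 4.76% both. Hormad1 has 2 nearly coincident windows in the table, of which the first is used, and the shares of all genes count a match in any window of a gene. A match is only a run of letters, and its occupancy by any factor was not measured.

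Below are the 250 bases before the start of 3 genes with both motifs, followed by 2 genes with neither, read 5′ to 3′ on the gene's strand, with matches in capitals. They are shown because the genes with neither motif, Syce1 and Sycp2, behaved in opposite ways in the knockouts. The windows are chr3:95559427-95559676 (plus strand), chr10:88459337-88459586 (plus), chr3:82876484-82876733 (minus), chr7:140787855-140788104 (minus) and chr2:178407659-178407908 (minus). The last bases of the Sycp2 and Sycp3 windows lie inside the GENCODE spans of those genes.
Hormad1: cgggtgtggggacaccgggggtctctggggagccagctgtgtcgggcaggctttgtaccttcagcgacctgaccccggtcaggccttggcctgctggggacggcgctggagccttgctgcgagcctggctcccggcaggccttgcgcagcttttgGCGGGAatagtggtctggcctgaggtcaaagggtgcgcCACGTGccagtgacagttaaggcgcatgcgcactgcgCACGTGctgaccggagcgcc
Sycp3: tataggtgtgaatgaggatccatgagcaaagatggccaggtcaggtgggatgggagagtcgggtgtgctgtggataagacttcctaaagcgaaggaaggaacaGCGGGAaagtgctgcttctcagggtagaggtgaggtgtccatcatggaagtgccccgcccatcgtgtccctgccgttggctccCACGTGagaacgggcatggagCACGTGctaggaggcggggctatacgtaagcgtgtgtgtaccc
Rbm46: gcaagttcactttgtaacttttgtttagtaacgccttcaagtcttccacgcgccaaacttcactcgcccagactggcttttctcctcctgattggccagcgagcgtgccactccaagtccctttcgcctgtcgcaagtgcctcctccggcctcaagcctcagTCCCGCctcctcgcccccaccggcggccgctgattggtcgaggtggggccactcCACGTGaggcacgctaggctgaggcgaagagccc
Syce1: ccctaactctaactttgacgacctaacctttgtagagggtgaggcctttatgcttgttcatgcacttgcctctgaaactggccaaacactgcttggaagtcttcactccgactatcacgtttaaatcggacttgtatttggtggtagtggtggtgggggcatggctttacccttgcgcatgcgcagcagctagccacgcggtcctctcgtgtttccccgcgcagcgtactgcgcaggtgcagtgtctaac
Sycp2: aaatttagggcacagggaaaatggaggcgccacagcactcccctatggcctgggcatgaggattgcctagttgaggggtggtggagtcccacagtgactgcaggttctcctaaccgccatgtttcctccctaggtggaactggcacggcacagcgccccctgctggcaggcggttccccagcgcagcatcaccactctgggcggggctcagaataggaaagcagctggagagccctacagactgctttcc

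In Hormad1 the E-boxes began 57 and 20 bases before the start, and in Sycp3 they began 64 and 43 bases before it. Rbm46 held 1 E-box, 34 bases before the start, and Sycp1 held 1, 94 bases before it. Ccnb1ip1 and Meioc held the E2F motif alone, in windows that lie within the GENCODE spans of these genes, which start further upstream. The ratio of observed to expected CpG was lowest in Sycp2, at 0.36, and lay between 0.62 and 0.87 in the other 7 windows, around a median of 0.74 in the promoters of genes tested in knockout oocytes. Syce1, with 0.62, thus shares the absence of both motifs with Sycp2 but not its low CpG ratio.

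**Figure D1:**
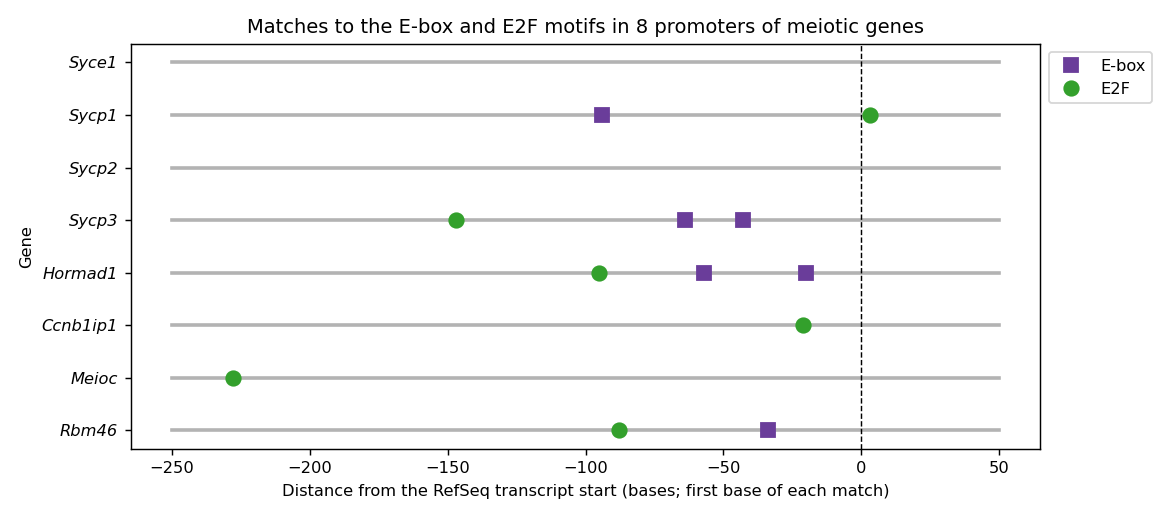
Position of the E-box (squares) and E2F (circles) matches in the 8 promoter windows, in bases from the RefSeq transcript start (dashed line); grey lines are the windows searched. Matches of both kinds sit in Sycp1, Sycp3, Hormad1 and Rbm46, and the lines of Syce1 and Sycp2 are empty.

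Without PRC1 activity or without PCGF1 and PCGF6, 9 of the 10 genes stood higher than in both matching controls, and Sycp2 did not. The additional loss of MLL2 split the 9. Syce1 and Hormad1 overlapped WT in TKO oocytes, Ccnb1ip1, Majin and Tex15 lay below WT, and Sycp1, Sycp3, Rbm46 and Meioc lay above it. These groups were named after the values were seen. Hormad1 overlapped only narrowly, with a highest TKO value of 0.83 RPKM and a lowest WT value of 0.82. Over all 13376 genes tested in the first set, 22.9% were called different between PRC1-CD and PRC1-WT oocytes, at an adjusted p under 0.05 in limma. In the second set of 12873 genes the share was 28.8% for DKO against WT, 51.3% for TKO against WT and 48.6% for TKO against DKO. In the higher direction alone, 17.3% of genes were called in PRC1-CD and 17.5% in DKO. The share of all genes with every library above its controls was not counted. Called differences are therefore common in these oocytes, and nothing is read from the count of the chosen genes. DKO and TKO were compared with the same 3 WT libraries. Differences below are on the log2(RPKM + 1) scale, with their standard error from limma, and a fold is a ratio of mean RPKM.

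**Figure D2:**
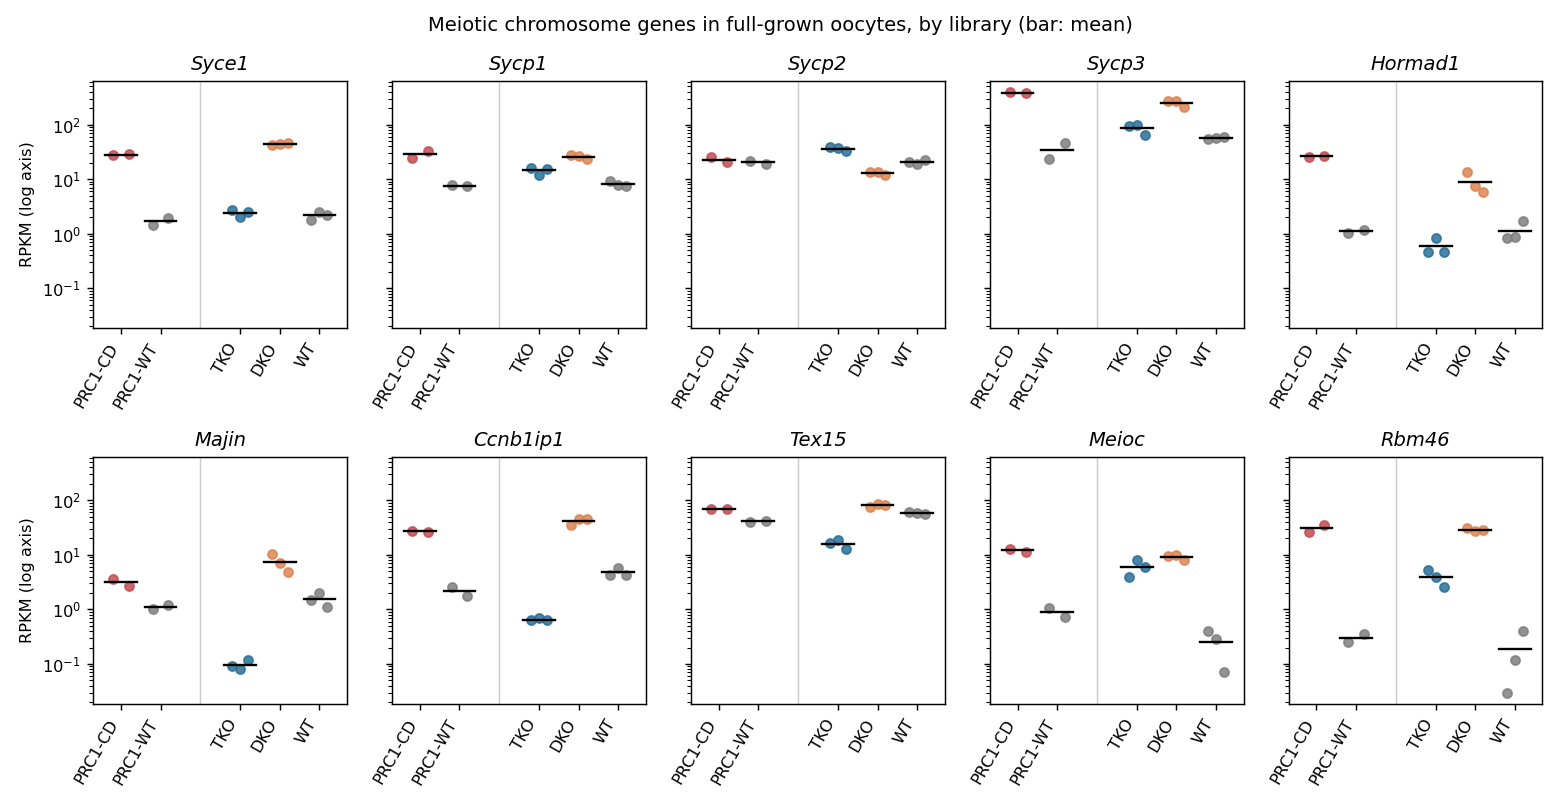
RPKM (log axis) of the 10 genes in each oocyte library, with the mean as a bar; the catalytic-dead set is left of the grey line and the knockout set right of it. Sycp2 is the gene whose DKO points lie below its WT points, and Ccnb1ip1, Majin and Tex15 have their lowest points in TKO.

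Syce1 (GRCm38 chr7:140777229-140787852, minus strand) encodes a central element protein of the synaptonemal complex. On the opposite strand it overlaps 1 pseudogene, and Sycp1 overlaps 3. Syce1 was at 27.4 and 28.6 RPKM in PRC1-CD oocytes, against 1.46 and 1.95 in PRC1-WT oocytes, a 16.4-fold ratio of means (log2 difference 3.43 ± 0.18). In the knockout set it measured 2.75, 2.02 and 2.55 RPKM in TKO, 41.9, 45.0 and 45.6 in DKO, and 1.79, 2.51 and 2.20 in WT. All DKO libraries thus stood far above the WT range, by 20.4-fold in the means, while the TKO and WT libraries overlapped. The TKO mean exceeded the WT mean by 0.651% of the amount by which DKO did. Between TKO and DKO the log2 difference was -3.72 ± 0.12, the second largest of the 10 genes.

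Sycp1 (chr3:102818499-102936100, minus strand) encodes the transverse filament that bridges the paired axes. Its levels were 24.9 and 32.5 RPKM in PRC1-CD, against 7.68 and 7.36 in PRC1-WT, 3.81-fold in the means (log2 difference 1.79 ± 0.19). TKO libraries held 16.1, 11.9 and 15.6 RPKM, DKO libraries 27.3, 26.3 and 23.2, and WT libraries 9.09, 7.72 and 7.44. The 3 genotypes did not overlap, and TKO lay between the other groups, with 36.6% of the excess of DKO over WT. The log2 differences were 0.76 ± 0.13 for TKO against WT and 1.55 ± 0.13 for DKO against WT.

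Sycp3, which forms the axis core together with SYCP2, was the most abundant of the 10 in every oocyte group except WT and PRC1-WT. It reached 391.7 and 375.0 RPKM in PRC1-CD, against 23.1 and 46.7 in PRC1-WT, 10.98-fold in the means (log2 difference 3.50 ± 0.30). In TKO it stood at 95.5, 97.6 and 64.7 RPKM, in DKO at 265.7, 271.1 and 209.4, and in WT at 54.1, 57.4 and 59.6. No TKO library fell inside the WT range, but the lowest TKO value was close to it, and TKO retained 15.1% of the DKO excess. Sycp3 lies wholly inside Chpt1 on the opposite strand (GRCm38 chr10:88459569-88473236), and the library kit does not mark strand. Chpt1 averaged 6.65 RPKM in PRC1-CD and 2.67 in PRC1-WT, and 5.97 in TKO, 5.33 in DKO and 2.26 in WT, all well under Sycp3.

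Sycp2, the other axis core protein (chr2:178345293-178407685, minus strand), differed in direction from the rest. It was at 25.0 and 20.6 RPKM in PRC1-CD and at 21.9 and 18.7 in PRC1-WT, which overlap (log2 difference 0.16 ± 0.18). TKO libraries held 38.5, 37.1 and 33.3 RPKM, DKO libraries 13.6, 13.6 and 11.9, and WT libraries 20.9, 19.2 and 22.5. Every DKO library was thus below every WT library, and every TKO library above it, an order found in none of the other 9 genes. The log2 difference was 0.77 ± 0.09 for TKO against WT, -0.64 ± 0.09 for DKO against WT and 1.41 ± 0.09 for TKO against DKO. The partners Sycp2 and Sycp3 therefore stood on opposite sides of WT in DKO oocytes.

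Hormad1 (chr3:95559677-95587671, plus strand) encodes an axis protein that marks chromosome stretches not yet synapsed. Levels were 25.7 and 26.7 RPKM in PRC1-CD, against 1.04 and 1.17 in PRC1-WT, 23.7-fold in the means (log2 difference 3.69 ± 0.17). The knockout set gave 0.46, 0.83 and 0.47 RPKM in TKO, 13.3, 7.44 and 5.78 in DKO, and 0.82, 0.86 and 1.71 in WT. DKO was uneven between libraries yet above WT throughout, and TKO overlapped WT at values under 1 RPKM, where this scale compresses differences. The log2 difference was -0.41 ± 0.26 for TKO against WT and 2.16 ± 0.26 for DKO against WT. The first was -0.81 with 0.1 added in place of 1, and -0.22 without WT replicate 3.

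Majin (chr19:6184388-6224225, plus strand), whose product fastens telomeres to the nuclear envelope, had low levels throughout. PRC1-CD oocytes held 3.62 and 2.72 RPKM, against 1.03 and 1.19 in PRC1-WT (log2 difference 0.98 ± 0.19). It was measured at 0.09, 0.08 and 0.12 RPKM in TKO, 10.5, 7.19 and 4.89 in DKO, and 1.49, 2.01 and 1.09 in WT. DKO lay above WT, 4.92-fold in the means, and TKO lay below it in every library. The log2 differences from WT were -1.19 ± 0.22 in TKO and 1.72 ± 0.22 in DKO. At these low values the added 1 sets the size: with 0.1 in its place the TKO difference was -3.02 from WT and -5.21 from DKO, and by the means WT exceeded TKO by 15.8-fold and DKO exceeded TKO by 77.8-fold.

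Ccnb1ip1 (chr14:50789248-50807732, minus strand), also called Hei10, encodes a ubiquitin ligase of the crossover pathway and had the widest gap between TKO and DKO of the 10 genes on the log2(RPKM + 1) scale, whereas by the ratio of means, 63.9-fold, it came after Majin. It was at 27.9 and 26.6 RPKM in PRC1-CD, against 2.62 and 1.78 in PRC1-WT, 12.4-fold in the means (log2 difference 3.16 ± 0.20). The knockout values were 0.63, 0.69 and 0.64 RPKM in TKO, 35.6, 45.0 and 44.7 in DKO, and 4.31, 5.78 and 4.20 in WT. DKO exceeded WT by 8.77-fold, whereas WT exceeded TKO by 7.29-fold, with no overlap on either side. The log2 differences were -1.79 ± 0.13 for TKO against WT, 2.89 ± 0.13 for DKO against WT and -4.69 ± 0.13 for TKO against DKO. By distance over the 3 log2 differences from controls, its nearest genes among 12418 were Cstb (1.02), Rhox2a (1.42) and Mir762 (1.53), none of which is close. Ccnb1ip1 overlaps Rpph1, an RNA gene on the same strand, which had at most 1.54 RPKM in any oocyte library.

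Tex15 (chr8:33516738-33585582, plus strand), needed for meiotic recombination in the mouse testis, was already abundant in control oocytes. It stood at 68.6 and 69.7 RPKM in PRC1-CD and at 39.8 and 42.4 in PRC1-WT, 1.68-fold in the means (log2 difference 0.74 ± 0.15). TKO oocytes held 16.7, 18.5 and 12.9 RPKM, DKO oocytes 75.8, 86.2 and 81.4, and WT oocytes 61.4, 59.8 and 57.2. The DKO excess was small, 1.36-fold, while WT exceeded TKO by 3.71-fold. On the log2 scale TKO differed from WT by -1.84 ± 0.11 and DKO by 0.44 ± 0.11. Majin, Ccnb1ip1 and Tex15, which span telomere and recombination roles, thus shared TKO values under the WT range.

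Meioc (chr11:102663716-102682237, plus strand), an RNA control factor that works with YTHDC2 to let germ cells stay in prophase, was at 12.98 and 11.5 RPKM in PRC1-CD, against 1.05 and 0.72 in PRC1-WT (log2 difference 2.82 ± 0.19). TKO gave 3.86, 8.14 and 5.98 RPKM, DKO 9.68, 9.90 and 7.93, and WT 0.41, 0.29 and 0.07. TKO overlapped DKO, as it did for no other of the 10 genes, and both were above WT in every library. The TKO excess over WT was 64.4% of the DKO excess. The log2 differences from WT were 2.44 ± 0.21 in TKO and 3.02 ± 0.21 in DKO, and TKO differed from DKO by -0.58 ± 0.21. With 0.1 added in place of 1 the differences from WT were 4.17 in TKO and 4.83 in DKO, and without TKO replicate 1 the difference between TKO and DKO was -0.34.

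Rbm46 (chr3:82837228-82876483, minus strand), an RNA-binding protein that acts with MEIOC and YTHDC2, was nearly absent from control oocytes. PRC1-CD libraries held 26.5 and 35.4 RPKM, against 0.25 and 0.35 in PRC1-WT, and this was the largest log2 difference of the 10 in that set (4.61 ± 0.20). The other set had 5.31, 3.94 and 2.58 RPKM in TKO, 30.9, 28.0 and 28.1 in DKO, and 0.03, 0.12 and 0.41 in WT. The genotypes did not overlap, and TKO retained 13% of the DKO excess, against 64.4% for its partner Meioc. Log2 differences were 2.03 ± 0.19 for TKO against WT, 4.67 ± 0.19 for DKO against WT and -2.64 ± 0.19 for TKO against DKO. The first was 3.99 with 0.1 added in place of 1.

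**Figure D3:**
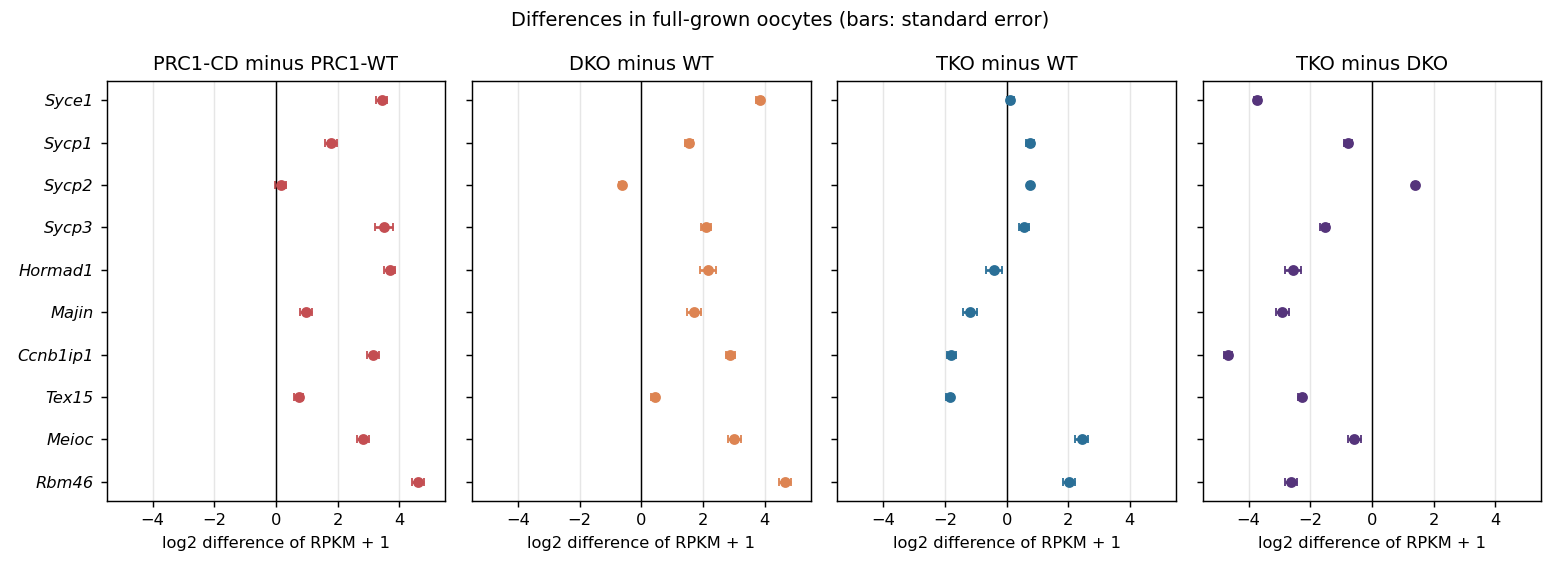
Log2 difference of RPKM + 1 for each gene in the 4 oocyte comparisons; points are limma estimates and bars their standard errors. Sycp2 alone is left of 0 for DKO minus WT (-0.64) and right of 0 for TKO minus DKO (1.41), and in the third panel the genes run from -1.84 (Tex15) to 2.44 (Meioc).

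Among these 8 promoters, genes of the same motif class fell into different TKO groups. The 4 genes with both motifs include Hormad1, which narrowly overlapped WT in TKO, and Sycp1, Sycp3 and Rbm46, which lay above it. Of the 2 with the E2F motif alone, Ccnb1ip1 lay below WT in TKO and Meioc above it. Majin and Tex15, which also lay below WT in TKO, had no window, so Ccnb1ip1 alone represents that group. With 8 promoters this is a description only, and whether motif class goes with TKO group could not be judged. The order of oocyte levels also differed between groups. Sycp3 led in PRC1-CD and DKO with Tex15 second, whereas Tex15 led in WT with a mean of 59.5 ± 2.11 RPKM, next to Sycp3 with 57.0 ± 2.81 (SD, n = 3 each), whose ranges overlap.

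To see how far the pattern extends, 46 other meiotic genes were taken from general knowledge and counted in the fits over all genes. In PRC1-CD against PRC1-WT oocytes 17 rose and 0 fell of 37 tested, beside 17.3% of all genes called higher and 5.61% lower. Under quantile normalization 12 rose and 1 fell, beside 1608 of all genes called higher and 1538 lower. Of the 37, 8 had a PRC1-WT mean under 1 RPKM and could pass the filter only by being higher in PRC1-CD. Among the 29 with a PRC1-WT mean of at least 1, 10 rose and 0 fell, against 9.78% and 6.39% of all such genes. The median log2 difference of the 37 was 0.48, against 0.04 for all genes. With any 1 of the 4 libraries left out, 8 to 10 of the list were called, the lowest count, 8, being reached without PRC1-WT replicate 1 or PRC1-CD replicate 1.

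Among genes also detected in PRC1-WT, the synaptonemal complex gene Tex12 rose to 277.6 and 219.8 RPKM in PRC1-CD, against 90.8 and 81.7 in PRC1-WT (log2 difference 1.51 ± 0.18, adjusted p = 0.00131 in limma). The cohesin gene Smc1b rose by 1.33 ± 0.17 on the log2 scale, the break formation gene Iho1 (listed as Ccdc36) by 1.87 ± 0.20, Meiob, whose product binds single-stranded DNA, by 1.91 ± 0.18, and the crossover gene Cntd1 by 1.01 ± 0.19. Syce2, a central element gene at 757.2 ± 105.7 RPKM in PRC1-CD and 803.7 ± 81.1 in PRC1-WT, was not called. The other genes called with a log2 difference of at least 1 were Prr19, Syce3, Six6os1 (listed as 4930447C04Rik), Spata22, Spdya and Meiosin (listed as Gm4969). They passed the filter through PRC1-CD alone, which fixed their direction, so only their levels are given. Prr19, a partner of CNTD1 in crossover maturation, was at 11.3 and 18.5 RPKM in PRC1-CD, against 0.64 and 0.81 in PRC1-WT. Syce3, of the synaptonemal complex, was at 2.03 and 6.22 RPKM in PRC1-CD, against 0 and 0.29 in PRC1-WT. Spata22, the partner of MEIOB, averaged 1.205 RPKM in PRC1-CD and was listed at 0 in both PRC1-WT libraries. Six6os1 averaged 2.24 RPKM in PRC1-CD and 0.11 in PRC1-WT. Spdya, a telomere-bound activator of CDK2, averaged 2.18 RPKM in PRC1-CD and 0.50 in PRC1-WT, and the entry factor Meiosin 1.65 in PRC1-CD and 0.23 in PRC1-WT.

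In DKO against WT oocytes 12 of 33 tested list genes rose and 3 fell, beside 17.5% of all genes higher and 11.3% lower. The 5 list genes with a WT mean under 1 RPKM, Prr19, Syce3, Spata22, Spdya and Meiosin, are among the 12, but they passed the filter through DKO alone, which fixed their direction. Of the other 28, 7 rose and 3 fell, against 14.1% and 12.6% of all genes with a WT mean of at least 1. Iho1 (Ccdc36) rose to 6.96, 5.88 and 7.23 RPKM in DKO, against 1.65, 1.62 and 1.72 in WT (log2 difference 1.53 ± 0.10, adjusted p = 6.6e-06 in limma). Tex12 rose by 0.99 ± 0.11 and Smc1b by 0.85 ± 0.10. Mei4, a break formation gene, Msh4 of the crossover pathway and Shoc1 fell, by 0.38 to 0.54 on the log2 scale. Of the genes whose direction was fixed, Prr19 was at 7.91, 6.58 and 7.13 RPKM in DKO, against 0.63, 0.81 and 0.53 in WT, and Spata22 at 1.76, 1.73 and 1.66 in DKO, against at most 0.04 in WT.

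In TKO against the same WT libraries 6 of the 33 rose and 9 fell, beside 31.2% of all genes higher and 20.1% lower. Under quantile normalization 6 rose and 11 fell, beside 3244 of all genes higher and 3085 lower. Among those with a WT mean of at least 1 RPKM 5 of 28 rose and 9 fell, against 28.4% and 22.4% of all such genes. Iho1 (Ccdc36) was at 5.76, 5.49 and 5.51 RPKM in TKO, against 1.65, 1.62 and 1.72 in WT, and rose by 1.31 ± 0.10. Smc1b rose by 1.03 ± 0.10. Rec114, which works with MEI4 and IHO1 in break formation, fell to 9.38, 9.06 and 9.76 RPKM in TKO, against 27.0, 29.7 and 25.2 in WT (log2 difference -1.44 ± 0.09, adjusted p = 2.22e-06 in limma). The break formation genes thus did not move together: Iho1 rose while Rec114 and Mei4 fell.

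In TKO against DKO 2 of the 33 rose and 14 fell, beside 26.8% of all genes higher and 21.8% lower. Quantile normalization also gave 2 and 14, beside 3447 of all genes higher and 2963 lower. The same 5 genes had passed through DKO alone, which fixed their direction, and 4 of the 14 are among them. Of the other 28, 2 rose and 10 fell, against 26.6% and 21.3% of all genes that did not pass through TKO or DKO alone. Rec114 fell to 9.38, 9.06 and 9.76 RPKM in TKO, against 33.2, 36.1 and 40.1 in DKO (log2 difference -1.84 ± 0.09, adjusted p = 7.46e-07 in limma). Cntd1 fell by 1.53 ± 0.21 and Tex12 by 1.36 ± 0.11. Sun1, which links telomeres to the cytoskeleton, and Mnd1, a recombinase cofactor, were the 2 that rose, by 0.63 ± 0.12 and 0.24 ± 0.07; both are named after their values were seen. Of the genes that passed through DKO alone, Prr19 was at 0.86, 0.91 and 0.73 RPKM in TKO, against 7.91, 6.58 and 7.13 in DKO. Syce3 stood at 0.73, 0.21 and 0.79 RPKM in TKO, 5.89, 2.83 and 3.14 in DKO, and 0, 0.37 and 0.12 in WT, so TKO overlapped WT and not DKO. Spata22 was listed at 0 in all 3 TKO libraries.

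**Figure D4:**
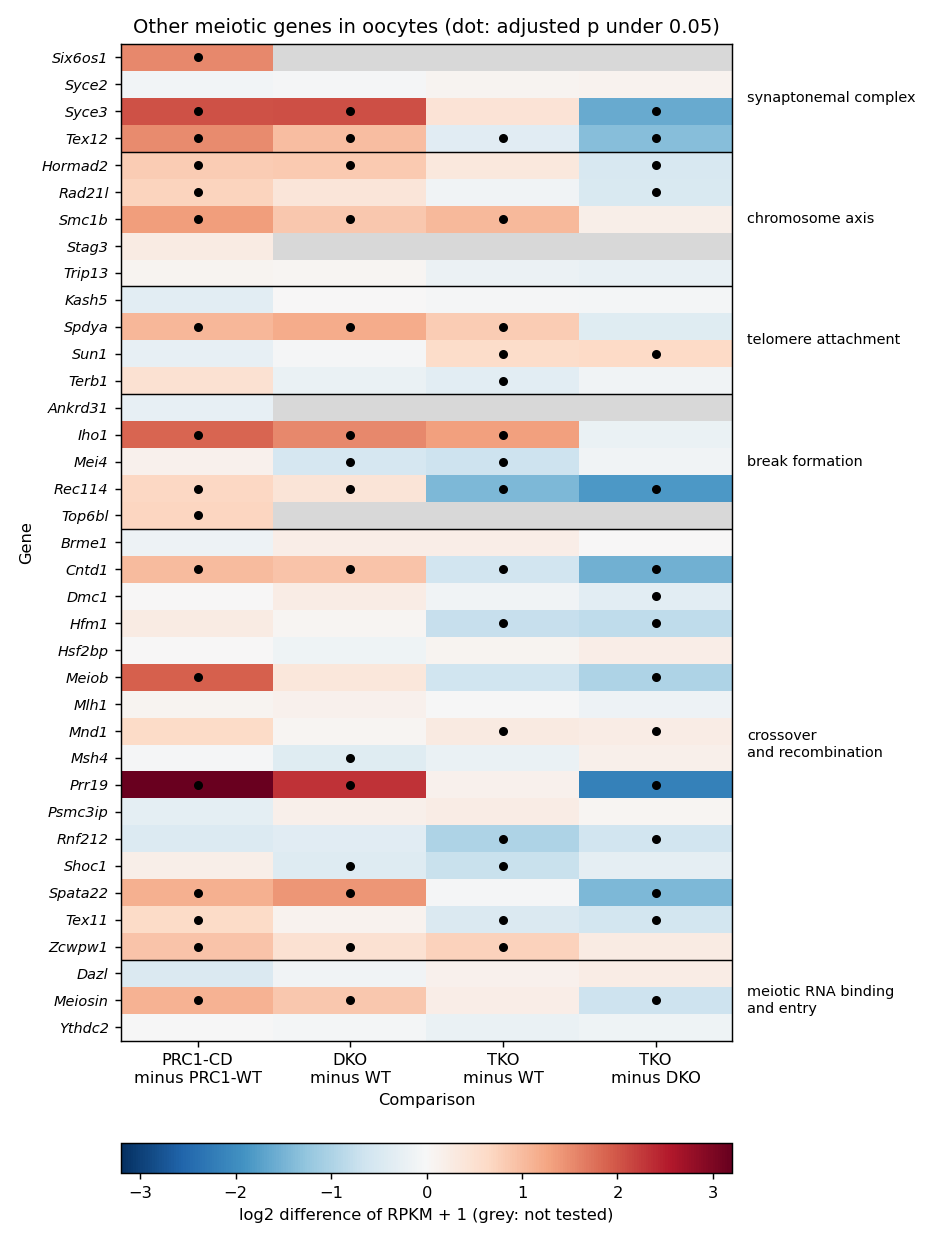
Log2 difference of RPKM + 1 in the 4 oocyte comparisons (columns) for the 37 other meiotic genes tested in at least 1 table, by role; red is higher and blue lower, a dot marks an adjusted p under 0.05 in limma, and grey was not tested. In the first column 17 genes have a dot and all are red, and in the last column 14 of the 16 dotted genes are blue. These dots include genes that passed the filter through PRC1-CD or DKO alone, 7 in the first column and 4 in the last, whose direction the filter fixed.

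In morulae none of the 8 members that could be tested was called in any of the 3 comparisons (limma, adjusted p under 0.05). Over all 13056 genes 1.74% were called between matDKO and WT, 0.567% between matTKO and WT and 0.0689% between matTKO and matDKO, so few calls were made there at all. By direction these were 0.329% higher and 1.41% lower in matDKO, 0.176% higher and 0.391% lower in matTKO, and 0.046% higher and 0.023% lower in matTKO than in matDKO. At an unadjusted p under 0.05 the members gave 2 for matTKO against WT, Ccnb1ip1 and Sycp2, 0 for matDKO against WT and 0 for matTKO against matDKO. Of all 13056 genes 1679, 2264 and 867 passed that limit in the same order, so nothing is read from the members' counts. Meioc and Rbm46 were under a mean of 1 TPM in every morula group and were not tested. By correlation with their own group 4 morula libraries stood apart, matTKO replicates 8 and 9 and matDKO replicates 8 and 9. Without them 7 members could be tested and 0 were called.

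Ccnb1ip1 ran from 8.66 through a median of 16.3 to 30.5 TPM in matTKO, from 9.41 through 20.8 to 37.6 in matDKO, and from 16.1 through 25.5 to 33.5 in WT (n = 10 each). The groups overlapped widely. Rpph1, which overlaps it on the same strand, averaged 14.8 TPM in matTKO, 25.8 in matDKO and 10.2 in WT, and its part in these values was not tested. The log2(TPM + 1) difference was -0.57 ± 0.23 for matTKO against WT (p = 0.0201, adjusted p = 0.279 in limma) and -0.30 ± 0.23 for matDKO against WT (adjusted p = 0.521).

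Syce1, 20.4-fold higher in DKO than in WT oocytes, was at a median of 10.3 TPM in matTKO (0 to 20.3), 10.5 in matDKO (0.62 to 21.8) and 12.4 in WT morulae (6.64 to 16.4). Its log2 difference was -0.32 ± 0.42 for matTKO and -0.35 ± 0.42 for matDKO, each against WT. Hormad1 had medians of 17.4 TPM in matTKO (7.97 to 80.1), 18.6 in matDKO (7.59 to 52.8) and 21.04 in WT (4.47 to 55.0). The 3 groups overlapped for both genes.

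Sycp3 was the most abundant member in morulae too, with medians of 159.6 TPM in matTKO (57.6 to 259.4), 135.5 in matDKO (90.3 to 171.2) and 157.0 in WT (98.5 to 206.8). Differences from WT were -0.10 ± 0.18 in matTKO and -0.23 ± 0.18 in matDKO (adjusted p = 0.855 and 0.528 in limma). Chpt1, in which Sycp3 lies on the other strand, averaged 192.0 TPM in matTKO, 161.3 in matDKO and 175.6 in WT, so at this stage it was at least as abundant as Sycp3. The share of the Sycp3 values that comes from Chpt1 cannot be told apart in libraries without strand. Sycp1 had medians of 17.8 TPM in matTKO (6.99 to 167.4), 22.5 in matDKO (10.9 to 57.8) and 24.6 in WT (13.4 to 55.3).

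Sycp2, higher in TKO than in DKO and WT oocytes, was scarce in morulae, with medians of 0.49 TPM in matTKO, 0.49 in matDKO and 0.20 in WT. The 2 highest libraries were matTKO replicates 8 and 9, at 6.67 and 10.3 TPM, and the other 8 matTKO libraries were under 1. Without the libraries that stood apart Sycp2 failed the filter, so its log2 difference of 0.68 ± 0.33 for matTKO against WT (p = 0.0459, adjusted p = 0.375 in limma) rests on them. Summed trophectoderm markers were 265.4 and 848.4 TPM and summed pluripotency markers 519.2 and 182.3 TPM in matTKO replicates 8 and 9, and the part of embryo makeup in these values was not tested.

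Majin had medians of 2.15 TPM in matTKO (0.93 to 8.35), 3.70 in matDKO (1.31 to 12.5) and 2.595 in WT (1.26 to 8.21). The difference was -0.52 ± 0.31 for matTKO against matDKO (adjusted p = 0.841 in limma), where the oocyte difference was -2.91 ± 0.22. Tex15 was at medians of 0.86 TPM in matTKO, 1.46 in matDKO and 0.82 in WT. Rbm46, at 26.5 and 35.4 RPKM in PRC1-CD oocytes and 28.0 to 30.9 in DKO oocytes, was listed at 0 in 7 of 10 matTKO, 9 of 10 matDKO and 7 of 10 WT morulae. Meioc had means of 0.74 TPM in matTKO, 0.57 in matDKO and 0.23 in WT. RPKM and TPM tables were scaled separately, so levels are not compared between stages.

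**Figure D5:**
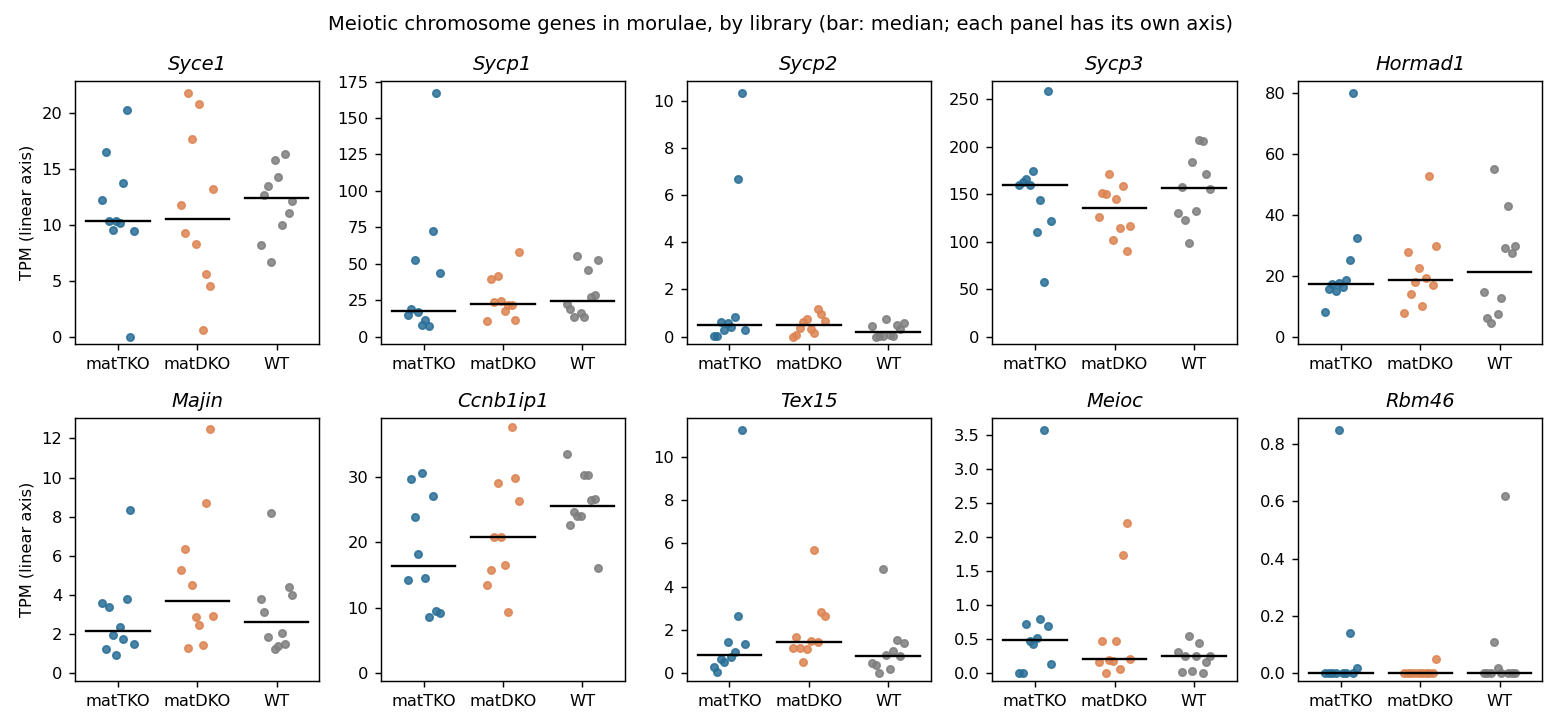
TPM (linear axis, one scale per gene) of the 10 genes in each of the 10 matTKO, 10 matDKO and 10 WT morula libraries, with the median as a bar. The groups overlap for every gene, and the highest Sycp2 points are matTKO replicates 8 and 9, at 6.67 and 10.3 TPM.

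The other meiotic genes gave 0 calls of 27 tested in each morula comparison, with 4, 5 and 3 at an unadjusted p under 0.05 for matDKO against WT, matTKO against WT and matTKO against matDKO. Of all 13056 genes 2264, 1679 and 867 passed that limit in the same order. Sun1 and Terb2, of the telomere attachment, had the lowest adjusted p. Terb2 averaged 5.07 TPM in matTKO, against 9.63 in WT (log2 difference -0.79 ± 0.22, adjusted p = 0.0784 in limma), and 6.90 in matDKO (adjusted p = 0.284 against WT). Sun1 averaged 105.6 TPM in matTKO and 104.9 in matDKO, against 69.3 in WT, with log2 differences of 0.61 ± 0.17 in each against WT (adjusted p = 0.088 for matTKO and 0.0627 for matDKO, in limma). Under quantile normalization both Sun1 comparisons with WT passed the threshold.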

How the data were processed

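RNA was measured in 43 mouse libraries, with cDNA made by SMART-Seq v4 and libraries by Nextera XT, per the labels' protocols. The submitters' processing notes name STAR 2.7.3, STAR 2.7.6, featureCounts 1.6.0, RSEM 1.3.1 and Trim Galore 0.6.4, without saying which table each tool made. The authors deposited RPKM values for oocytes, scaled to transcript length and library size. The deposited morula table is titled RPKM, but its libraries each sum to between 999421 and 999922, so its values were taken here as TPM. Depth is unknown, and precision rests on the spread between libraries.

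In R 4.3.3, limma 3.58.1 (eBayes with trend) was fitted to log2(value + 1). A gene entered the fit if some group averaged 1 or more. The spread was estimated once per table, over its groups. Tests were two-sided, Benjamini-Hochberg adjusted over all genes, and called at an adjusted p under 0.05. The fit was tested on simulated data. From each of the oocyte tables, 27 symbols turned into dates were dropped. Tables were tested separately. Gene coordinates are from GENCODE on GRCm38 and promoters from RefSeq on GRCm38.p6. The members and lists were chosen with earlier results of these data known. All members were named. Of the other meiotic genes, those called with an absolute log2 difference of at least 1 were named, besides the 3 genes nearest to the members with the extreme TKO minus DKO differences. Further list genes were named outside this rule, among them Syce2, Mei4, Msh4, Shoc1, Sun1, Mnd1 and Terb2. Tex12 and Smc1b in DKO were also under that limit. Alternatives were a pseudocount of 0.1, no filter, quantile normalization, a replicate block, leaving out each oocyte library, and, added after seeing the data, leaving out 4 morula libraries.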

Additional observations from a re-analysis of the deposited data

Results flagged for a closer look

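In groups of 10 morula libraries, a highest value was set apart by its gap to the next where that gap exceeded 0.466 of the group's range. Normally distributed values give such a gap in about 1 of 20 groups. The TPM values were taken without a log, and the groups share libraries, so that rate cannot be set against the count here. Of 24 groups of values, 8 exceeded the limit, and 4 of the 8 were in matTKO replicate 9. In that library Sycp1 was at 167.37 TPM, with 72.27 next. Hormad1 was at 80.07 TPM there, with 32.39 next. Majin was at 8.35 TPM, with 3.79 next, and Tex15 at 11.25 TPM, with 2.63 next. The same library listed Syce1 at 0, the lowest of its group. Its correlation with the other matTKO libraries was 0.838 at the median, and its trophectoderm markers summed to 848.4 TPM, which were not tested as a cause. Hormad1 reached 52.81 TPM in matDKO replicate 8, with 29.75 next. Tex15 reached 5.7 TPM in matDKO replicate 7, with 2.84 next. In WT replicate 4, Majin stood at 8.21 TPM with 4.39 next, and Tex15 at 4.81 TPM with 1.52 next.

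In 2 genes every library of one affected group lay above its control mean and every library of a second affected group lay below its own, and the difference was not tested. Mean differences of other members also changed sign between oocytes and morulae, but there libraries of 1 group lay on both sides of the control mean. For Sycp2, PRC1-CD averaged 22.81 RPKM against 20.31 in PRC1-WT, and DKO 13.05 RPKM against 20.86 in WT. For Rbm46, DKO oocytes averaged 28.99 RPKM against 0.187 in WT, whereas matDKO morulae averaged 0.005 TPM against 0.075 in WT, with most morula libraries listed at 0.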

How the results depend on the processing

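The sign of every member's oocyte difference was the same under a pseudocount of 0.1, no filter, quantile normalization, the replicate block and the loss of any 1 library. Of the recomputed oocyte differences of members, 444 stayed within their replicate spread. The other 26 moved beyond it, all under the pseudocount of 0.1 or quantile normalization (the pseudocount took Majin in TKO against WT to -3.02, against -1.19). The 117 recomputed morula differences were compared by call only, not with the replicate spread, and none became called. Their signs were not all kept, as given below. The calls of PRC1-CD against PRC1-WT rest on 2 libraries a group: 3059 genes and 17 other meiotic genes were called with all 4, 1238 to 1543 and 8 to 10 without 1 (without PRC1-WT replicate 1, 1325 and 8; without replicate 2, 1238 and 9; without PRC1-CD replicate 1, 1543 and 8; without replicate 2, 1352 and 10). Without the filter 9 other meiotic genes were called there. The calls over all genes were not set beside that count, so it has no background. Leaving out 1 library gave 2421 to 4211 genes for DKO against WT (2421 without WT replicate 3), 12 to 16 of the list, 5378 to 6576 genes and 13 to 17 for TKO against WT, and 5151 to 6423 and 11 to 18 for TKO against DKO. Quantile normalization moved the median of all genes by -0.12 in PRC1-CD, and the share of calls that were higher from 75.5% to 51.1% there, from 60.8% to 47.3% for DKO and from 60.8% to 51.3% for TKO against WT.

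In morulae matDKO against WT called 227 genes, 93 without the filter and 607 with the replicate block, and of the other meiotic genes 1 (Sun1) under quantile normalization and 1 (Sun1) with the block. For matTKO against WT 74 genes were called, 21 with the pseudocount of 0.1, 32 without the filter, 137 under quantile normalization, 183 with the block and 183 without the 4 libraries; Sun1 was the 1 list gene called under quantile normalization and the 1 called without the 4 libraries. Quantile normalization gave 40.4% of calls higher against 18.9% for matDKO and 43.8% against 31.1% for matTKO. For matTKO against matDKO 9 genes were called, 5 without the filter and 16 with the block. Members called stayed at 0 throughout. Same-numbered libraries had deviations that correlated between -0.167 and 0.569, over 0.1 in 13 of 30 morula pairs and 1 of 9 knockout oocyte pairs. A correlation over 0.1 had been set for reading the numbers as pairs, and the morula pairs lay on both sides of it. The main fits took libraries as unpaired. Whether the numbers mark something shared between morula libraries was not tested. With the block 18 of the list were called for PRC1-CD, 14 for DKO, and 15 for each TKO comparison. Neither directions nor calls over all genes were set beside these oocyte counts, so they have no background. Leaving out the 4 libraries turned the sign of 6 uncalled member differences, for example Sycp1 in matTKO against matDKO, 0.08 to -0.59. Among genes tested in knockout oocytes the E2F motif stood in 35.8% of promoters and both motifs in 4.76%, against 22% and 2.65% of all.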

Other observations

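Sycp2 had closer neighbours than Ccnb1ip1 by distance over the 3 oocyte differences from controls, among 12418 genes and 13 libraries. They were Map1s (0.188), AU018091 (0.195) and Ttc23l (0.218). Map1s, which encodes a microtubule-associated protein, averaged 6.33 ± 1.5 RPKM in TKO, 2.05 ± 0.40 in DKO and 3.76 ± 1.15 in WT (SD, n = 3 each). Cstb, nearest to Ccnb1ip1, encodes the protease inhibitor cystatin B. It averaged 11.9 ± 8.94 RPKM in TKO, 129.8 ± 13.02 in DKO and 18.3 ± 0.92 in WT.

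Of the 34 other meiotic genes with a promoter in the table, 17.6% held the E-box, 52.9% the E2F motif and 14.7% both. The corresponding shares of the 9575 genes tested in knockout oocytes were 11.4%, 35.8% and 4.76%. No test was made of these shares.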
